A study of Mus musculus with 6 samples.

Results

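Among the mature miRNAs listed in small RNA libraries of neuron-like N2a cells, 6 entries belong to the stems miR-3535, miR-1839, miR-664 and miR-1291, whose precursors overlap annotated small nucleolar RNAs or their Cajal body relatives. They were taken by name, any arm, and are mmu-miR-3535, mmu-miR-1839-5p, miR-1839-3p, miR-664-5p, miR-664-3p and miR-1291, out of 685 listed entries. The stems were chosen by name while the signal differences between the treated and the control group in these same libraries were known. Differences between the groups are therefore given here as a description. No p-values are printed, and the counts and calls at a p threshold given below are part of that description.

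N2a is a mouse neuroblastoma line, and all cells were differentiated with 10 µM retinoic acid in medium with 2% serum over 96 h. The RSL3 group (3 libraries) then received 5 µM RSL3 for 24 h, and the DMSO group (3 libraries) received the solvent alone. RSL3 blocks GPX4, the enzyme that detoxifies lipid peroxides, and is used to bring on ferroptosis. Both groups carry the retinoic acid treatment, a tumour line stands in for neurons, and the labels do not say whether libraries of a group came from separate cultures. The spread between libraries may therefore be technical.

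Small nucleolar RNAs (snoRNAs) are stable nuclear RNAs, mostly cut out of introns, that guide chemical modification of other RNAs. Box C/D snoRNAs carry short box C and box D motifs near their ends and guide ribose methylation. Box H/ACA snoRNAs fold into hairpins, end just after an ACA triplet and guide pseudouridylation, and their relatives in Cajal bodies are called scaRNAs. Pieces of snoRNAs can enter Argonaute proteins and be listed as miRNAs, and the human counterpart of miR-664 is a known case.

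The mature sequences are shown first because their letters and ends place them within snoRNAs. Capitals mark the seed, bases 2 to 8, the part of a miRNA that pairs with targets. All come from RefSeq (GRCm38.p6) and are written from the 5′ end.
miR-3535: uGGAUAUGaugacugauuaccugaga
miR-1839-5p: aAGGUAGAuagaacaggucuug
miR-664-5p: cUGGCUGGggaaaaugacugg
miR-664-3p: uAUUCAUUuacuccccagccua
miR-1291: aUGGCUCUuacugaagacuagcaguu
A mature sequence was matched for 554 of the 685 entries, and none of these 5 seeds occurred in another matched entry. Both miR-3535 and miR-1291 have 26 nt, while the median of the matched entries was 22 nt and 4 of 554 (0.722%) had at least 26 nt.

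The miR-3535 precursor lies on the minus strand at chr1:86351981-86352127 (147 nt, GRCm38) in Ncl, the gene of the nucleolar protein nucleolin. It touches exons only of Ncl transcripts annotated as retained introns. Within it GENCODE places the whole of Gm24148, an 80 nt snoRNA at chr1:86352008-86352087. The mature miR-3535 spans chr1:86352062-86352087, so its first base is the first base of the snoRNA (0 nt between the starts). The snoRNA is printed to show where its boxes fall, read on the RNA strand only. Capitals mark the letters UGAUGA of box C in the first 15 bases and CUGA of box D in the last 15. The same letters also occur elsewhere in it, such as CUGA at bases 13 and 21, and are left small there.
Gm24148: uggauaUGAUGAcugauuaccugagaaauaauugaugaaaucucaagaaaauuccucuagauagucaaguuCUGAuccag
Box C letters begin at base 7 and box D letters at base 72, which leaves 5 bases after box D. Among 1558 annotated snoRNAs and scaRNAs, 20.3% held UGAUGA in the first 15 bases and 30.9% held CUGA in the last 15.

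The letters UGAUGA were in 6 of the 554 mature sequences (1.08%). In 3 of these 6 the precursor overlaps an annotated snoRNA, and the letters begin at base 6 or 7. These 3 are shown side by side with UGAUGA in capitals.
miR-3535: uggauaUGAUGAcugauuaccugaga
miR-5121: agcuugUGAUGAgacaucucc
miR-677-5p: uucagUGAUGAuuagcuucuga
The miR-5121 and miR-677-5p sequences begin 2 nt after the start of their snoRNAs, of which the former is Snord33 in Rpl13a. The other 3 entries with these letters were miR-130b-3p, miR-136-5p and miR-200b-3p, in which they begin at bases 9, 14 and 17. A match of letters describes a sequence and does not show a working box.

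The other stems lie in RNAs of the H/ACA kind, each with ACA 3 bases before its annotated end, as in 19.3% of the 1558 annotated RNAs. The miR-1839 precursor (chr7:81529916-81529988, plus strand) shares 66 of its 73 nt with a 127 nt scaRNA, in an exon of the long non-coding RNA 2900076A07Rik. The miR-664 precursor (chr1:185242975-185243043, plus strand) shares 64 of its 69 nt with Snora36b, in an intron of Rab3gap2, which encodes a regulator of Rab GTPases. The hairpins are printed with the matched mature sequences in capitals, to show the arms.
Mir1839: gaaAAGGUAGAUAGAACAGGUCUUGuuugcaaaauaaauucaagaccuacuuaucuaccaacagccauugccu
Mir664: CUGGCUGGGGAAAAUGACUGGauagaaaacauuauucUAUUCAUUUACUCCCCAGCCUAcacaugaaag
In both, the 5p sequence begins well inside the snoRNA, 64 nt after its start for miR-1839-5p and 68 nt for miR-664-5p. The miR-664-3p sequence ends 5 nt before the end of Snora36b. Both hairpins thus sit in the 3′ part of the annotated RNA, whose final 30 bases are given here with the ACA in capitals.
Mir1839 scaRNA: aauucaagaccuacuuaucuaccaACAgcc
Snora36b: uucuauucauuuacuccccagccuACAcau

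The miR-1291 sequence differs from these. Its precursor (chr15:98519762-98519878, minus strand, 117 nt) shares 92 nt with Snora34, in an intron of Kansl2, which encodes a subunit of a histone acetyltransferase complex. The mature sequence (chr15:98519828-98519853) begins at the first base of Snora34, like miR-3535 in its snoRNA, although Snora34 ends in an H/ACA tail. A fold of the RefSeq hairpins with RNAfold gave the miR-3535 hairpin −0.26 kcal/mol per nt, the 11th weakest of 377, against a median of −0.43. The miR-1839 hairpin was the 29th weakest and the miR-1291 hairpin the 39th weakest, at −0.30 and −0.32 kcal/mol per nt. The miR-664 hairpin, at −0.41, was close to the median.

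**Figure D1:**
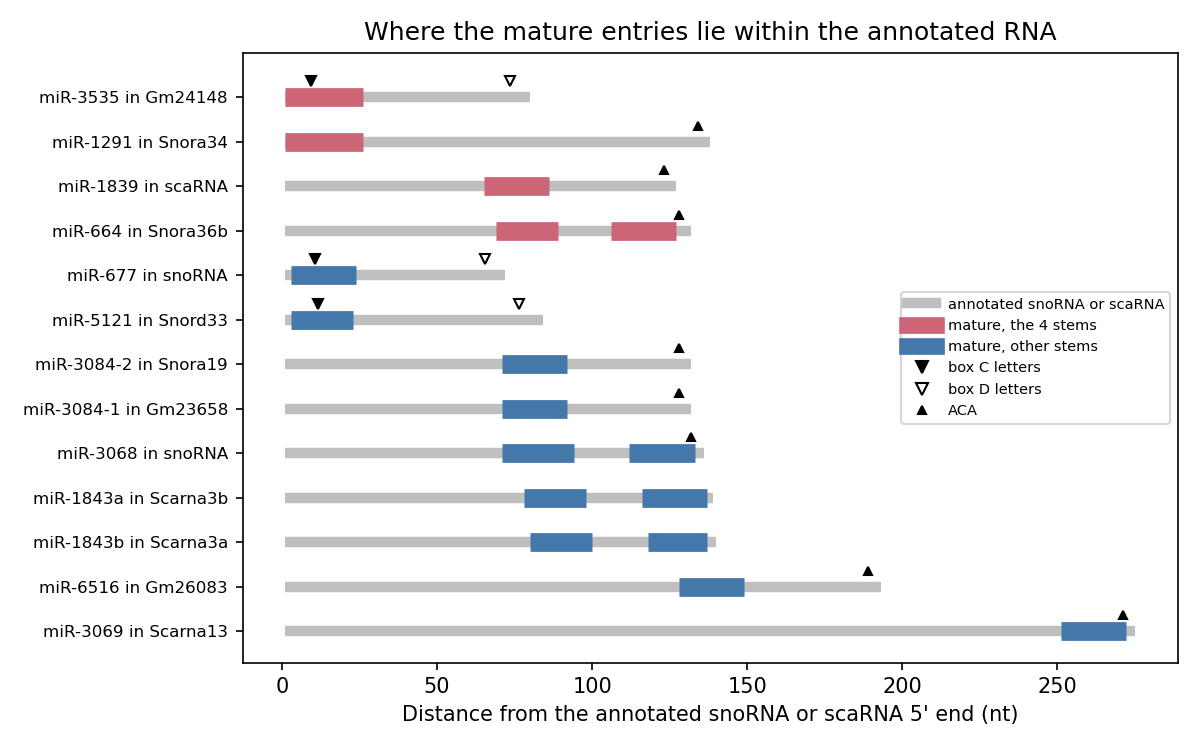
Each grey bar is an annotated snoRNA or scaRNA that overlaps a precursor on the same strand, drawn from its 5′ end in nt, with mature entries of the 4 stems in red and of other stems in blue. Triangles mark box C letters, box D letters and the ACA. The miR-3535 and miR-1291 entries start at the first base of their RNA, while miR-1839 and miR-664 lie in the 3′ part. The miR-1839-3p entry is not drawn.

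The deposited signal is a read count divided by the library's scaled depth, and the libraries held 3406276 to 6058006 reads over the listed entries. A single read was worth 0.157 to 0.314 of signal. Of 8 neuronal marker miRNAs fixed for the check of the cell type, 8 were listed, and miR-7a-5p was the highest of them. Their summed signal was 217096 to 292912 in DMSO and 184585 to 232290 in RSL3 libraries. Blood markers (3 of 5 listed) summed to 88.6 to 119 and 97.9 to 159, epithelial markers (4 of 6) to 398 to 462 and 362 to 450, and the liver marker to at most 5.96. Muscle markers (3 of 3) summed to 105 to 193 in DMSO and 68.8 to 129 in RSL3 libraries, and glial markers (2 of 2) to 133 to 175 and 139 to 185. Fibroblast and smooth muscle markers (4 of 4, mostly miR-143-3p) summed to 35246 to 38417 and 35941 to 37140. Among these marker sums only the endothelial one, miR-126a-3p, did not overlap between the groups. It ran from 586 to 646 in DMSO and from 728 to 873 in RSL3 libraries. Over all tested entries, 12.3% had every RSL3 library above every DMSO library and 12% had every one below. The other arm, miR-126a-5p, had a log2 difference (RSL3 minus DMSO) of -0.47 ± 0.17 (SE), against 0.38 ± 0.11 (SE) for miR-126a-3p. The part of miR-126a-3p in the results was not tested. Fewer cells of a type and less RNA per cell cannot be told apart in such bulk libraries.

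The 6 entries differed widely in level. Taken over the 6 libraries, miR-1839-5p had a mean signal of 1068 (place 79 of 685 by mean), miR-3535 460 (place 116) and miR-1839-3p 20.6 (place 351). The lowest were miR-664-3p at 13.7, miR-664-5p at 6.73 and miR-1291 at 3.09 (place 533). The ranges of miR-1839-5p and miR-3535 over the libraries did not meet each other or those of the other entries. Of the low entries, miR-1839-3p ran from 15.3 to 25.4 and miR-664-3p from 12.4 to 16.8, so these neighbours overlapped. The range of miR-664-5p was 4.72 to 9.87 and that of miR-1291 1.33 to 4.71, which came next to each other without overlap.

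Together the 6 entries made up 0.132% to 0.190% of the signal of a library. Within that sum miR-1839-5p held 64.9% to 73.4% and miR-3535 23.4% to 32.8%, so the 4 others shared 2.33% to 3.33%. The summed signal was 1392 ± 24.8 (SD, n = 3) in DMSO and 1753 ± 137 (SD, n = 3) in RSL3 libraries. Nearly all of that gap came from the 2 abundant entries.

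**Figure D2:**
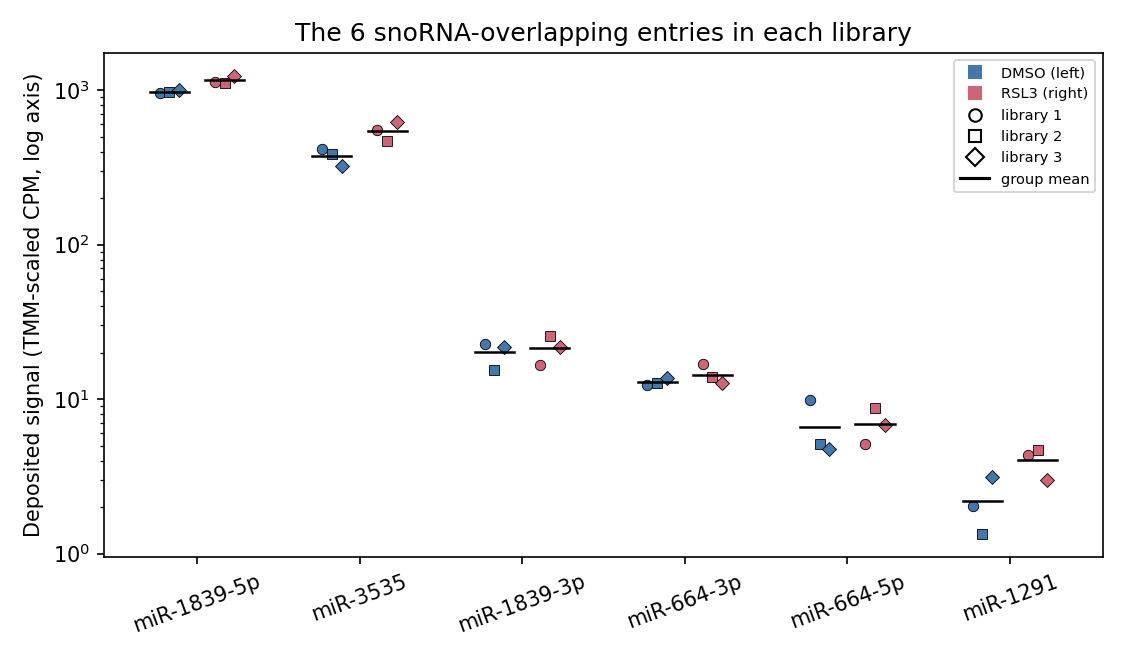
Deposited signal (log axis) of the 6 entries in each library, DMSO in blue at the left and RSL3 in red at the right, with the marker shape giving the library number and bars the group means. The RSL3 points of miR-1839-5p and miR-3535 lie above all DMSO points, and those of the 4 low entries overlap with DMSO.

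The entry at the start of the box C/D snoRNA, miR-3535, had a higher signal in every RSL3 library than in any DMSO library. It stood at 413, 386 and 320 in DMSO libraries 1 to 3 and at 549, 468 and 624 in RSL3 libraries 1 to 3. Each value rested on at least 1491 reads and at most 3114. DMSO library 3 was the lowest and RSL3 library 3 the highest, and RSL3 library 2 came closest to the DMSO libraries.

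The group means of miR-3535 were 373 ± 47.6 and 547 ± 78.3 (SD, n = 3), with a log2 difference of 0.55 ± 0.14 (SE), or 1.46-fold on the log2(signal + 1) scale. Replicates spread by 12.8% (DMSO) and 14.3% (RSL3) of the mean, where counting error alone gives about 2.28% and 2.18%, so depth did not limit this entry. Of 666 tested entries, 32 (4.8%) had a log2 difference at least as high. Leaving out RSL3 library 2 gave 0.66, and leaving out DMSO library 3 gave 0.44.

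The entry miR-1839-5p, which overlaps a scaRNA and was the most abundant of the set, also stood higher in each RSL3 library, with a smaller difference. Its signal was 957, 970 and 1004 in DMSO libraries 1 to 3 and 1125, 1117 and 1235 in RSL3 libraries 1 to 3. The DMSO values spread by 2.47% of their mean (SD), and RSL3 library 3 was the highest of all. The means were 977 ± 24.1 and 1159 ± 66.3 (SD, n = 3), a log2 difference of 0.24 ± 0.11 (SE) or 1.18-fold. A difference of this size or higher was seen in 149 of 666 tested entries (22.4%).

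The opposite arm did not share that separation. The signal of miR-1839-3p was 22.9, 15.3 and 21.8 in DMSO libraries 1 to 3 and 16.5, 25.4 and 21.9 in RSL3 libraries 1 to 3, so the groups overlapped. Its log2 difference was 0.08 ± 0.21 (SE), and it changed sign when DMSO library 2 (-0.09) or RSL3 library 2 (-0.05) was left out. It rested on 65 to 146 reads per library, for which counting error alone gives about 9.94% of the mean in the DMSO group.

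The arms of miR-664, in the 3′ part of Snora36b, overlapped between the groups. The signal of miR-664-3p was 12.4, 12.7 and 13.8 in DMSO libraries 1 to 3 and 16.8, 13.8 and 12.6 in RSL3 libraries 1 to 3, with a log2 difference of 0.14 ± 0.19 (SE). RSL3 library 1 was the highest and RSL3 library 3 lay among the DMSO values. The signal of miR-664-5p was 9.87, 5.10 and 4.72 in DMSO and 5.08, 8.79 and 6.82 in RSL3 libraries 1 to 3, with a log2 difference of 0.10 ± 0.28 (SE). Here DMSO library 1 was the highest of all 6, and without it the difference was 0.39. Without DMSO library 2, DMSO library 3 or RSL3 library 2 it was -0.03, -0.07 and -0.07.

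The entry at the start of Snora34, miR-1291, had few reads. Its reads numbered 13, 6 and 16 for DMSO libraries 1 to 3, against 17, 15 and 15 for RSL3 libraries 1 to 3. As signal this was 2.04, 1.33 and 3.15 against 4.32, 4.71 and 3.01, so RSL3 library 3 lay below DMSO library 3. The 95% exact Poisson interval, which covers counting error only, was 0.489 to 2.90 for DMSO library 2 and 2.63 to 7.76 for RSL3 library 2, the lowest and highest values. The log2 difference of 0.68 ± 0.28 (SE) was 0.33 with a pseudocount of 5.

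A limma fit over the whole table called 0 of the 6 entries at an adjusted p of 0.05, where 0.601% of all tested entries were called higher, 0.15% lower and 0.751% in either direction. At an unadjusted p under 0.05 the fit had 3 of the 6 on the higher side (miR-3535, miR-1839-5p and miR-1291), and 0 on the lower side, where 8.86% and 8.41% of all tested entries were. After rescaling without the 5 most abundant entries limma called 0 of the 6, with 0.601% of entries called higher, 1.8% lower and 2.4% in either direction, so the split of calls over the whole table turned from mostly higher to mostly lower. The number higher at an unadjusted p under 0.05 was 2 after this rescaling and 2 without a variance trend. It was 1 with the replicate block, 1 in DESeq2, and 1 without DMSO library 1, DMSO library 2, RSL3 library 1 or RSL3 library 2. The edgeR test on recovered reads also called 0 of the 6 (3 higher at an unadjusted p under 0.05), with 0.601% of entries called higher, 0.3% lower and 0.901% in either direction. DESeq2 called miR-3535 as higher, with 4.97% of its entries called higher, 5.5% lower and 10.5% in either direction, and gave no adjusted p to miR-1291 and both arms of miR-664. In limma miR-3535 was called when RSL3 library 2 was left out, where 2.1% of entries were called higher, 0.751% lower and 2.85% in either direction. The groups did not overlap in 2 of the 6 entries, and every RSL3 library lay above every DMSO library in 12.3% of all tested entries, and below in 12%. The 6 log2 differences were positive under every scaling tried, though not with every library left out, with a median of 0.19, beside 334 positive of 666 (50.2%) and a median of 0.00134 over all tested entries. Since the entries were chosen with this contrast in view, these counts describe them and support nothing further.

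**Figure D3:**
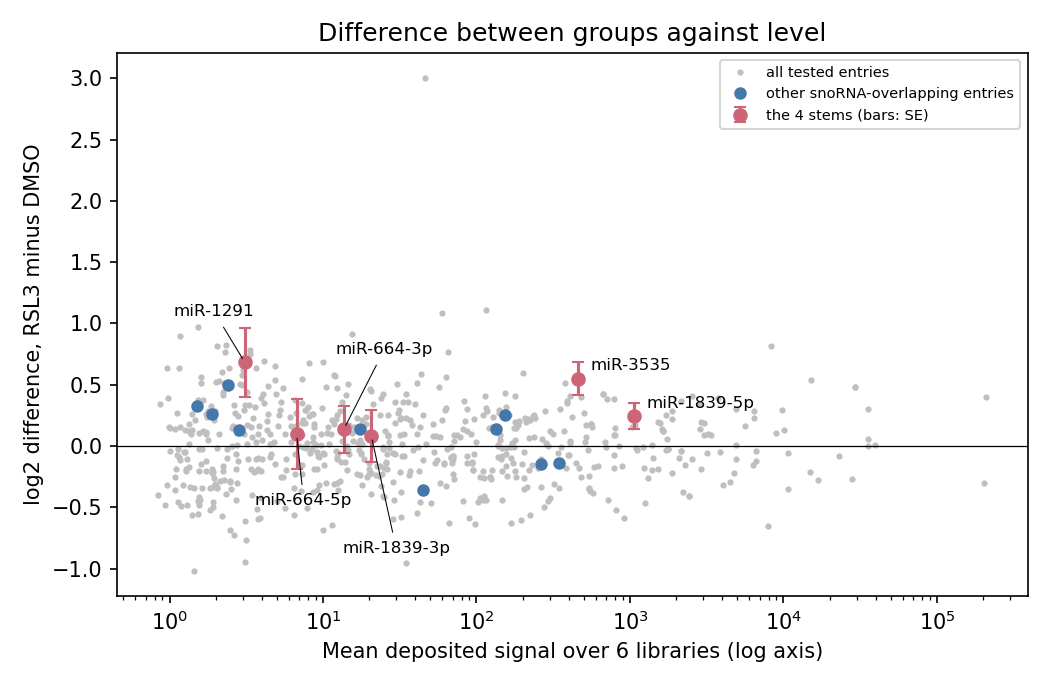
Each point is a tested entry, with its mean signal over 6 libraries on a log x axis and its log2 difference (RSL3 minus DMSO) on the y axis; the 4 stems are red with bars for the SE, and other entries with a snoRNA-overlapping precursor are blue. Among the red points miR-3535 (0.55) and miR-1291 (0.68) lie highest, and miR-1291 has the lowest mean signal of the 6 (3.09).

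Plain ratios within a library do not depend on how libraries were scaled. The log2 ratios, here and for the arms, were taken on signal + 1, so at low signal they are not fully free of scaling. For every 100 of miR-1839-5p signal there were 43.1, 39.8 and 31.9 of miR-3535 in DMSO libraries 1 to 3 and 48.8, 41.9 and 50.6 in RSL3 libraries 1 to 3. The ratio of RSL3 library 2 fell among the DMSO values, so the groups overlapped. The log2 of the ratio averaged -1.40 ± 0.22 for DMSO and -1.09 ± 0.14 for RSL3 (SD, n = 3), a difference of 0.31. Leaving out DMSO library 3 gave 0.18 and leaving out RSL3 library 2 gave 0.40.

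The hairpin of miR-1839 gave far more 5p than 3p. Its 5p signal was 41.8, 63.4 and 46.0 times the 3p signal in DMSO libraries 1 to 3 and 68.1, 43.9 and 56.5 times in RSL3 libraries 1 to 3. Among 182 precursors with both arms tested, 23 leaned more strongly to 5p. The arms of miR-664 were closer, with the 3p signal at 1.25, 2.48 and 2.92 times the 5p signal in DMSO and 3.30, 1.57 and 1.85 times in RSL3 libraries 1 to 3. The median size of the log2 arm ratio over the 182 precursors was 3.02, against a mean of -0.96 for miR-664. The log2 ratio of 5p to 3p changed by 0.16 ± 0.24 (SE) in miR-1839 and by -0.04 ± 0.32 (SE) in miR-664, and the groups overlapped in both. Neither was among the 2.75% of precursors that limma called.

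**Figure D4:**
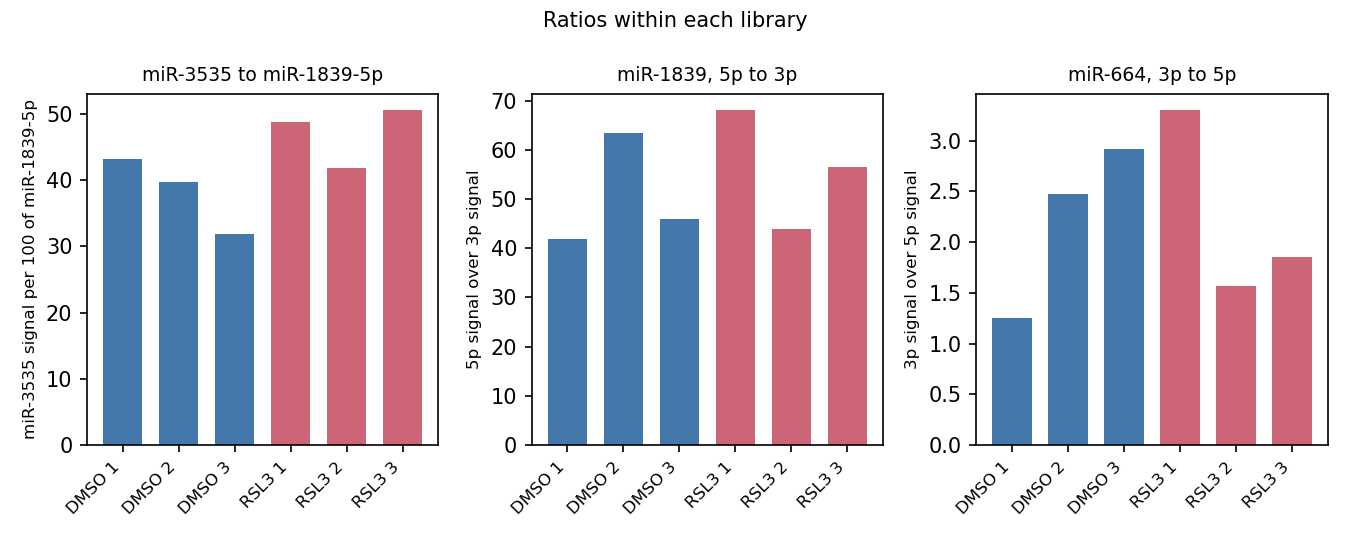
Bars give, for each library (DMSO blue, RSL3 red), the miR-3535 signal per 100 of miR-1839-5p, the 5p signal over the 3p signal of miR-1839, and the 3p signal over the 5p signal of miR-664. In each panel at least one RSL3 bar lies within the range of the DMSO bars.

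The profiles of miR-3535 and miR-1839-5p over the 6 libraries had a Pearson r of 0.86 (Spearman rho 0.77) on the log2 scale. After each group's mean was taken away r was 0.32, so most of the likeness lay between the groups. Of 413 other entries with a mean signal of at least 10, those most like miR-3535 were miR-467a-3p and miR-467d-3p (r = 0.97 each, with almost equal values in every library) and miR-185-5p (r = 0.97). Those most like miR-1839-5p were miR-99b-5p (r = 0.96), miR-5100 (r = 0.92) and miR-215-5p (r = 0.92). Of all these, limma called miR-5100 and miR-215-5p as higher in RSL3, with log2 differences of 3.01 and 0.91, and not the others. For these entries r was not taken after removing the group means, so it includes the difference between the groups. A Pearson r above 0.8 was reached by 37 entries with miR-3535 and by 25 with miR-1839-5p, and all values share the same 6 libraries and their scaling. Between the arms of a precursor r was 0.19 for miR-1839 and -0.43 for miR-664. None of the 6 entries had reads within 1% of another entry in all libraries, the closest being miR-1839-5p and miR-152-3p with a gap of up to 13.2%, and partial sharing of reads, or sharing with the snoRNA itself, cannot be seen in these values.

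The 4 stems are part of a larger class. A same-strand overlap of the precursor with an annotated snoRNA or scaRNA was found for 17 listed entries, the 6 above and 11 of the stems miR-1843a, miR-1843b, miR-3068, miR-3069, miR-3084, miR-5121, miR-6516 and miR-677. Of these 17, 16 were tested and 0 were called in limma (3 higher and 0 lower at an unadjusted p under 0.05, all 3 among the 4 stems), beside 0.751% of all tested entries called and 8.86% higher and 8.41% lower unadjusted. The 10 tested entries outside the 4 stems had 7 positive and 3 negative log2 differences with a median of 0.14. Over all tested entries 50.2% were positive, with a median of 0.00134. With the filter at a signal of 10, 6 of the 10 remained, with 3 positive and 3 negative differences and a median of -0.0017. The most abundant, miR-1843a-5p, had 364 ± 43.9 in DMSO and 329 ± 28.7 in RSL3 libraries (SD, n = 3), with a log2 difference of -0.14 ± 0.13 (SE), and its relative miR-1843b-5p had one of -0.15 ± 0.13 (SE). Of these 10, the groups did not overlap in miR-3068-5p, at 141, 158 and 124 in DMSO and 187, 158 and 158 in RSL3 libraries 1 to 3, where DMSO library 2 and RSL3 libraries 2 and 3 nearly touched. Over all tested entries 12.3% had every RSL3 library above and 12% below.

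The other entries at the start of a box C/D snoRNA did not show the separation of miR-3535. The signal of miR-677-5p, from an intron of the ATP synthase gene Atp5b, was 38.1, 52.8 and 62.4 in DMSO and 38.4, 37.3 and 40.9 in RSL3 libraries 1 to 3, with a log2 difference of -0.36 ± 0.18 (SE). That of miR-5121 was 2.69 ± 1.02 in DMSO and 2.95 ± 0.48 in RSL3 libraries (SD, n = 3), with a log2 difference of 0.13 ± 0.28 (SE). It rested on 10 to 16 reads per library, so depth limits what miR-5121 can show. The difference between these entries and miR-3535 was not tested.

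The 5′ end of miR-1839-5p shares letters with that of let-7, the family that restrains growth in differentiated cells, and with that of a few other entries. The letters AGGUAG, in capitals, start at base 2 of miR-1839-5p and at base 3 of the 9 let-7 and miR-98 entries listed as a 5p arm, of which the most abundant pair is shown. The entries let-7j and let-7k, listed without an arm, were not among these 9.
miR-1839-5p: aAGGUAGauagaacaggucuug
let-7c-5p: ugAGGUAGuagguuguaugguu
let-7f-5p: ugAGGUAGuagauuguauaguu
Among the matched entries 13 of 554 (2.35%) held these letters in their first 9 bases. Besides miR-1839-5p and the 9 guides these were let-7k, miR-196a-5p and miR-196b-5p. The log2 differences of miR-196a-5p and miR-196b-5p were 0.09 ± 0.13 and -0.19 ± 0.26 (SE). Where the letters start in the miR-196 entries was not compared. Between miR-1839-5p and the 9 guides the register is shifted by a base, so the seeds differ, AGGUAGA in miR-1839-5p and GAGGUAG in the 9 guides. The mean signal of the 9 guides ran from 109.5 (miR-98-5p) to 10637 (let-7c-5p), with let-7c-5p at 11965 ± 1792 in DMSO and 9309 ± 632 in RSL3 libraries (SD, n = 3). All 9 had negative log2 differences (median -0.21), beside 332 negative of 666 tested entries. In limma 0 of the 9 were called, beside 0.751% of all tested entries. These guides are alike in sequence and how reads matching several entries were assigned is not given, so they may not be separate observations. Outside the 9, let-7j had a log2 difference of 0.20 ± 0.13 and let-7k one of -0.35 ± 0.30 (SE). At an unadjusted p under 0.05 limma had 3 of the 9 lower, beside 8.41% of all tested entries, and 1 to 4 over the alternatives. The sign was negative for all 9 under every scaling tried, and turned positive for let-7f-5p alone when DMSO library 3 or RSL3 library 3 was left out.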

How the data were processed

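Small RNA libraries (RNAs of 15 to 35 nt, 50 cycles) of 3 DMSO and 3 RSL3 samples were analysed from the deposited signal per mature miRNA. Per the submitters' processing notes, the authors used cutadapt, Bowtie and edgeR with GRCm38. The sources used here give neither versions nor settings, nor how reads matching several entries or a snoRNA were assigned. The deposited signal was a whole multiple of a step per library for 100% of values within 0.01 of a read, and it equalled CPM scaled by edgeR's TMM factors (0.936 to 1.05). The tables hold no read sequences, so read ends were not analysed here.

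The test was limma 3.58.1 (R 4.3.3) on log2(signal + 1) with a variance trend, over 666 entries with a signal of at least 1 in at least 3 libraries (19 left out), two-sided, adjusted by Benjamini-Hochberg. edgeR 4.0.16 and DESeq2 1.42.0 were run on recovered reads. RNAfold 2.7.2 folded hairpins. Annotation was GENCODE M21. The 6 entries and all lists were chosen with earlier results of these data known. Named besides them were, by rule, the 3 most alike entries for miR-3535 and miR-1839-5p, entries with snoRNA-overlapping precursors, and let-7 guides, as well as a list of rRNA-like and tRNA-like names. Outside that rule, and named with values in view, are miR-130b-3p, miR-136-5p, miR-200b-3p, miR-152-3p, miR-196a-5p, miR-196b-5p, let-7j, let-7k and miR-126a-5p. Of these, miR-130b-3p, miR-136-5p and miR-200b-3p came from the search for UGAUGA. The search for AGGUAG gave miR-196a-5p, miR-196b-5p and let-7k.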

Additional observations from a re-analysis of the deposited data

How the results depend on the processing

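Across 17 alternatives (pseudocount, filter, scaling, variance model, replicate block, count tests, each library left out) the log2 difference of miR-3535 ran from 0.44 to 0.66 and that of miR-1839-5p from 0.19 to 0.28. That of miR-664-3p ran from 0.03 to 0.22. The differences of miR-1839-3p (-0.09 to 0.25) and miR-664-5p (-0.07 to 0.39) changed sign with the library left out. That of miR-1291 ran from 0.33, with a pseudocount of 5, to 0.90. The count of the 6 entries called higher, 0 as reported, was 1 in DESeq2. Leaving out single libraries gave 0 to 1, and the 1 was miR-3535 without RSL3 library 2. The cause was not tested. The count called lower was 0 under each alternative. The arm ratio change ran from 0.02 to 0.33 in miR-1839 and from -0.25 to 0.28 in miR-664. No 10-signal filter value exists for miR-1291 and miR-664-5p, which fall below it. No scaling moved the median of all entries by more than 0.05. The ratio of miR-3535 to miR-1839-5p was added after seeing the data.

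Same-numbered libraries did not deviate together (r = -0.35, -0.33 and -0.19), while r ran from 0.04 to 0.30 for libraries with different numbers. With 3 libraries per group these values cannot settle whether the numbers pair libraries, and the labels do not say. With the replicate block the log2 differences were as reported (0.55 for miR-3535) and the counts of entries called higher and lower were 0 and 0. Depth limits miR-1291 (6 to 17 reads) and miR-664-5p (20 to 63 reads).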

Other observations

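Another group of names, written down from general knowledge, holds entries reported to match rRNA or tRNA. Of its 12 names 4 were listed and tested: miR-3968, miR-5099, miR-5100 and miR-6240. In limma 1 of the 4 was called higher (miR-5100) and 0 lower, beside 0.601% and 0.15% of all tested entries. Their median log2 difference was 0.23 beside 0.00134 over all tested entries. The list was written with earlier results of these data known, so these counts describe it and support nothing further. The signal of miR-5100 was 7.37, 7.55 and 13.6 in DMSO libraries 1 to 3 and 107.8, 61.2 and 78.8 in RSL3 libraries 1 to 3, with no overlap and a log2 difference of 3.01 ± 0.25 (SE). The most abundant, miR-5099, had a signal of 5958, 4650 and 5288 in DMSO libraries 1 to 3 and of 5036, 6873 and 5959 in RSL3 libraries 1 to 3, with overlap between the groups. The signal of miR-3968 was 77.7 ± 19.3 and 95.9 ± 22.4, and that of miR-6240 1.95 ± 0.54 and 1.13 ± 1.03, in DMSO and RSL3 libraries (SD, n = 3).

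The snoRNA-overlapping miR-3084-5p, which has a copy in Snora19 and another in Gm23658, was below the filter and not tested. It had a signal of 1.25, 0.89 and 0.79 in DMSO libraries 1 to 3 and of 0.76, 0.31 and 0.40 in RSL3 libraries 1 to 3, where 3 reads are worth 0.470 to 0.941. Every RSL3 value lay below every DMSO value, on 1 to 8 reads per library.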
